A study of Mus musculus with 12 samples.

Results

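The 10 genes described here encode 8 matrix metalloproteinases (MMPs), Mmp2, Mmp3, Mmp9, Mmp10, Mmp12, Mmp13, Mmp14 and Mmp19, and 2 of their tissue inhibitors, Timp1 and Timp2. They were taken by name from the 33018 lines of a raw count table and from the matching TPM table, where TPM are counts corrected for gene length and for the total of the tumor. Each of the 10 stood on 1 line, and all 10 were among the 14142 genes that passed the filter on low counts. RNA was sequenced from 12 MC38/hPD-L1 tumors, 4 per group, to compare gene expression in the tumor after each treatment. MC38 is a mouse colorectal adenocarcinoma line, used here as 1 line transduced with human PD-L1, because ALPN-202 does not bind mouse PD-L1, although it does bind mouse CD28 and CTLA-4. The first group received ALPN-202 (100 µg), a variant CD80 domain fused to an antibody Fc. The second received anti-PD-L1 (100 µg of the human PD-L1 antibody durvalumab), and the third an Fc control protein (75 µg). All mice were female C57BL/6NJ, 8 to 10 weeks of age at the start, with intact immune systems, and bore the tumor under the skin of the flank. They were given 1 intraperitoneal dose on day 8, and tumors were harvested 72 h later.

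MMPs are zinc-dependent proteases that are made as inactive proenzymes and, once activated, cut collagens, elastin and other proteins of the extracellular matrix. TIMPs bind the active site of MMPs and block them. In tumors the transcripts come from several cell types at once: macrophages are the known source of Mmp12, while Mmp2, Mmp14 and Timp2 are typical of fibroblasts and other mesenchymal cells. Many MMP genes are induced through AP-1, the Fos and Jun transcription factors, which bind close to the start of transcription.

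On build NCBIM37 (GENCODE vM1), Mmp13 (chr9:7272514-7283333), Mmp12 (chr9:7344381-7369499), Mmp3 (chr9:7445822-7455972) and Mmp10 (chr9:7502352-7510238) lie on the plus strand within a cluster of 10 MMP genes that spans 427 kb. The other members are spread over the genome, with Mmp2 at chr8:95351227-95377316, Mmp9 at chr2:164766280-164781350, Mmp14 at chr14:55050441-55060095, Mmp19 at chr10:128228009-128237880, Timp1 at chrX:20447292-20451861 and Timp2, on the minus strand, at chr11:118162383-118217054. The cDNA kit does not mark strand, so reads from overlapping genes on opposite strands cannot be told apart. Mmp12 shares 157 exon bases with Mmp1b, which had at most 1 read in any tumor, and Mmp19 shares 789 exon bases with the uncharacterized gene 1110012D08Rik. Mmp3 and Mmp10 are close paralogs: 6.66% of the 58-base windows of the Mmp3 transcript and 6.98% of those of Mmp10, the length of 1 read, occur unchanged in the other gene. The split of such reads between Mmp3 and Mmp10 is uncertain.

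The promoters of the 4 cluster members are shown because 3 of the 4 had an unadjusted p under 0.05 in both comparisons of ALPN-202, and because they share a feature that the choice of genes did not use. RefSeq promoter windows (build GRCm38.p6, from 250 bases before to 50 bases after the annotated start) were found for 7 of the 10 genes, and for Mmp12 there were 2 windows, of which the one that holds the motif is printed. The windows were searched on both strands for the AP-1 motif TGANTCA, which reads the same on either strand. Capitals mark each match.

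Mmp12 (chr9:7347124-7347423): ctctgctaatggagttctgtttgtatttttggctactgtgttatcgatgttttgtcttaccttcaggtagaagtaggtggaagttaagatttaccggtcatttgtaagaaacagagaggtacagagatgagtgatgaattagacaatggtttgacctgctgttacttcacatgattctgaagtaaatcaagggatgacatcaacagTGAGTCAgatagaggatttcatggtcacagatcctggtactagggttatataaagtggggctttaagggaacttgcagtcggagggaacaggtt
Mmp3 (chr9:7445572-7445871): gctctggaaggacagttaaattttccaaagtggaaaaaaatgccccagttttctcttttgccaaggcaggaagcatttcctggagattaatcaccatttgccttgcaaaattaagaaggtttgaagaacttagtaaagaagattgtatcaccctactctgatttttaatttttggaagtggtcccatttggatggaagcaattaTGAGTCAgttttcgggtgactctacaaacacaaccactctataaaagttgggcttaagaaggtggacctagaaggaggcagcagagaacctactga
Mmp10 (chr9:7502092-7502391): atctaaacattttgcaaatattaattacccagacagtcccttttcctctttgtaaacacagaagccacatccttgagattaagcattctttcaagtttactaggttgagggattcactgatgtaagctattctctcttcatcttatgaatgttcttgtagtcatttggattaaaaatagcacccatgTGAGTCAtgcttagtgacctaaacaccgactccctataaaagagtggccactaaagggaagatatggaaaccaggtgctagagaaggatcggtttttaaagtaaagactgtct
Mmp13 (chr9:7272264-7272563): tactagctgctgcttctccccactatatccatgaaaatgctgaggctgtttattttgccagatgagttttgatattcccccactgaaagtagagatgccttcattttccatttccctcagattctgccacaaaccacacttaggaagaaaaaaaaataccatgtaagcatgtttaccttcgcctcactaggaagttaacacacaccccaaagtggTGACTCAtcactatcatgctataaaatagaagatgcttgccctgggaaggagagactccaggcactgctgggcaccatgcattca

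The match began 44 bases before the start in the printed Mmp12 window, 46 bases before it in Mmp3, 63 in Mmp10 and 35 in Mmp13. The same 7 letters, TGAGTCA, stood in Mmp12, Mmp3 and Mmp10, and TGACTCA in Mmp13. The other Mmp12 window and the windows of Mmp14, Timp1 and Timp2 held no match to these letters. Of all 32851 promoter windows of this length, 7.81% held the motif, against 4 of the 8 windows of these genes. A match describes the letters and does not show that a factor binds there.

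Total counts were 3988266 to 10692817 per tumor, and the lowest total belonged to ALPN-202 replicate 4. That library and Fc control replicate 1 differed from the other 10 by gene length. Short transcripts, of no more than 1019 bases, were above the median tumor in them, by median log2 differences of 1.30 in ALPN-202 replicate 4 and 0.87 in Fc control replicate 1. Long transcripts, of 6216 bases or more, were below it (-1.01 and -0.98). In 4 tumors (ALPN-202 replicate 4, anti-PD-L1 replicates 2 and 4, and Fc control replicate 4) the 8 adipocyte markers summed to 1936 to 14287 TPM, and the 9 epithelial markers to 59.1 to 1167 TPM. In the other 8 tumors these sums were 104 to 321 TPM and 7.05 to 19.6 TPM, so markers of epithelium were close to absent from most of these tumors of a carcinoma line. Where a member passed the adjusted threshold without the 2 libraries or the 4 tumors, that value is given.

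Mmp14, the membrane-anchored MMP that activates proMMP2, was the most abundant member, and the inhibitors came next. In TPM, which allow levels of different genes to be compared per length, the medians over the 12 tumors were 525 for Mmp14, 384 for Timp2, 230 for Timp1, 181 for the gelatinase Mmp2, 85.2 for the collagenase Mmp13, 64.6 for the gelatinase Mmp9, 57.8 for the stromelysin Mmp3, 40.3 for Mmp12, 16.6 for Mmp19 and 2.49 for the stromelysin Mmp10. Within a tumor, Mmp12 was above Mmp19 and Mmp19 above Mmp10 in 12 of 12 tumors. Mmp14 was above Timp2 in 10 tumors, Timp2 above Timp1 in 11, Timp1 above Mmp2 in 10 and Mmp2 above Mmp13 in 10. The middle of the order was not separated beyond the spread between tumors, since Mmp13 was above Mmp9 in 9 tumors, Mmp9 above Mmp3 in 7 and Mmp3 above Mmp12 in 7. The members varied unequally: the highest tumor was 1.75 times the lowest for Timp1, against 8.32 times for Mmp19. The plot of TPM by tumor shows every value.

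**Figure D1:**
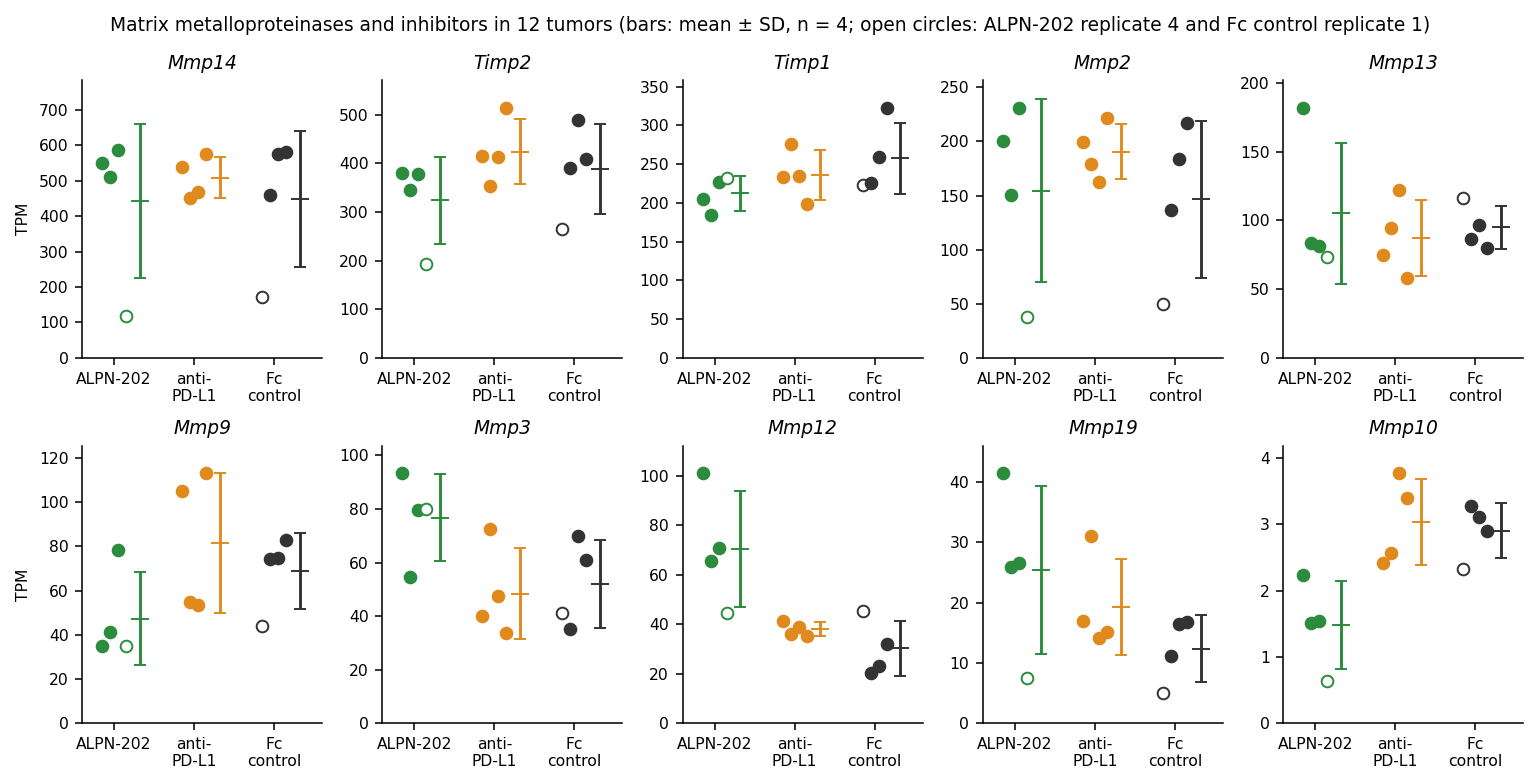
TPM of each of the 10 genes in every tumor, by treatment, with the mean and SD of 4 tumors beside the points, genes in order of their median level, and each vertical axis starting at 0. Open circles are ALPN-202 replicate 4 and Fc control replicate 1, which hold the lowest Mmp14 and Mmp2 values (119 and 172 TPM for Mmp14). All 4 ALPN-202 tumors are above the 4 anti-PD-L1 tumors in Mmp12 and below both other groups in Mmp10.

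Set against Fc control, ALPN-202-treated tumors had more Mmp12, Mmp19 and Mmp3 transcript and less Mmp10 at an unadjusted p under 0.05, while the most abundant members, Mmp14, Mmp2, Timp2 and Timp1, had log2 fold changes between -0.13 and 0.16. No member passed an adjusted p of 0.05 in edgeR's quasi-likelihood test of all 12 tumors, nor did any of the 14142 genes (0%), where the smallest adjusted p was 0.283. By DESeq2 232 genes passed (1.64%), 1 of them a member, Mmp12. At an unadjusted p under 0.05, 3 of the 10 members were higher, against 7.2% of all genes, and 1 was lower, against 1.98%. The median log2 fold change of the members was 0.12, and that of all genes tested was 0.04. In bulk tumors, a change in the number of cells of a type and a change in transcript per cell cannot be told apart.

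Mmp12 encodes macrophage elastase. It was at 101, 65.6, 71.0 and 44.4 TPM in the 4 ALPN-202 tumors, against 45.4, 20.4, 23.0 and 32.2 TPM in the Fc control tumors. In 3 of 4 ALPN-202 tumors its TPM was above every Fc control tumor. The overlap in TPM came from ALPN-202 replicate 4 and Fc control replicate 1 alone, the libraries with the length trend. In CPM, counts corrected for depth but not for gene length, Mmp12 was at 210, 129, 143 and 179 in ALPN-202 tumors. Fc control tumors were at 136, 43.2, 39.7 and 63.9 CPM. There the overlap was between Fc control replicate 1 and ALPN-202 replicate 2, and ALPN-202 replicate 4 was above every Fc control tumor. The groups of no member were apart with ALPN-202 higher in TPM, against 1.04% of all genes. The mean was 70.5 ± 23.3 TPM in ALPN-202 tumors and 30.3 ± 11.3 TPM in Fc control tumors (SD, n = 4 each; exact two-sided permutation test p = 0.0571, 1 of 30 such tests of members, where 0.0286 is the smallest p that 4 against 4 allows). The log2 fold change was 1.22 (SE 0.35, unadjusted p = 0.00417, adjusted p = 0.312 from edgeR), and DESeq2 gave an adjusted p of 0.0359. Without the 2 libraries it was 1.70 (SE 0.22, adjusted p = 0.0137 from edgeR), in a fit that called 1074 of 14382 genes (7.47%), Mmp12 alone among the members. Mmp12 was then at 65.6 to 101 TPM in 3 ALPN-202 tumors and at 20.4 to 32.2 TPM in 3 Fc control tumors. The fit left out the lowest ALPN-202 tumor and the highest Fc control tumor in Mmp12 TPM. The paper describes an ALPN-202 mouse without elevated T cell activation, and speculates that it may not have had a full dose. T cell genes summed to 99.2 TPM in ALPN-202 replicate 4 and to 209 to 321 TPM in ALPN-202 replicates 1 to 3. In Fc control tumors they summed to 43.8 to 79.3 TPM. Whether ALPN-202 replicate 4 is that mouse was not tested.

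Set against anti-PD-L1, Mmp12 was higher in 4 of 4 ALPN-202 tumors than in any anti-PD-L1 tumor. The anti-PD-L1 values were 41.5, 36.0, 39.0 and 35.5 TPM, with a mean of 38.0 ± 2.82 TPM (SD, n = 4; p = 0.0286 by the exact two-sided permutation test, the lowest it allows). Groups did not overlap, with ALPN-202 higher, for 1.38% of all genes, and Mmp12 was the 1 member among them. The log2 fold change was 1.18 (SE 0.35, adjusted p = 0.317 from edgeR), and 1.11 (SE 0.19, adjusted p = 0.0235 from edgeR) without the 2 libraries, where 5.2% of genes were called.

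Macrophage and monocyte genes were set beside Mmp12. Of 15 such genes tested, all 15 had a positive log2 fold change in ALPN-202 against Fc control (median 0.74), and 8 had an unadjusted p under 0.05, among them Ly6c2 (1.67), Cd14 (1.15) and Plac8 (1.59). They summed to 3487 to 10112 TPM in ALPN-202 tumors, to 3219 to 5968 TPM in anti-PD-L1 tumors and to 4301 to 6504 TPM in Fc control tumors, and none of the 15 was at 0 in all tumors. The sum did not follow Mmp12 in every tumor: Fc control replicate 2 had the highest sum of its group and the lowest Mmp12, and ALPN-202 replicate 4 had 44.4 TPM of Mmp12 with a sum of 3487 TPM. Per 1000 TPM of these genes, Mmp12 was at 9.98, 7.31, 7.87 and 12.7 TPM in ALPN-202 tumors, against 9.36, 3.14, 5.35 and 6.29 TPM in Fc control tumors. The means of this ratio were 9.47 ± 2.46 in ALPN-202 tumors and 6.04 ± 2.58 in Fc control tumors (SD, n = 4 each; exact two-sided permutation test p = 0.114). The part of the macrophage genes in the Mmp12 result was not tested. Of the other marker lists, 10 of 10 T cell genes (median 1.92), 1 of 4 neutrophil genes (1.51), 4 of 8 dendritic cell genes (0.93), 1 of 9 endothelial genes (0.66) and 2 of 12 fibroblast genes (0.82) had an unadjusted p under 0.05 in the same comparison, each with a positive estimate, and 0 of the mast cell, adipocyte, keratinocyte, epithelial and skeletal muscle genes had. Among all genes, 7.2% were higher and 1.98% lower at this threshold, a share that the count of endothelial genes is near.

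The gene whose log2 CPM was most like that of Mmp12 over the 12 tumors, among 9629 genes, was Arg1, arginase 1 of myeloid cells (Pearson's r = 0.97, Spearman's rho = 0.97, and r = 0.96 without the 2 tumors farthest from the Mmp12 median). Arg1 was at 1344, 795, 931 and 484 TPM in ALPN-202 tumors, at 503, 489, 402 and 311 TPM in anti-PD-L1 tumors and at 672, 275, 291 and 374 TPM in Fc control tumors. In Fc control replicate 1, where Mmp12 was highest of its group, Arg1 was too. The next were Iigp1, an interferon-induced GTPase (r = 0.94), and Hpse, heparanase, which cuts heparan sulfate of the matrix (r = 0.93). These correlations describe 12 tumors that differ in treatment and library, and carry no test.

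**Figure D2:**
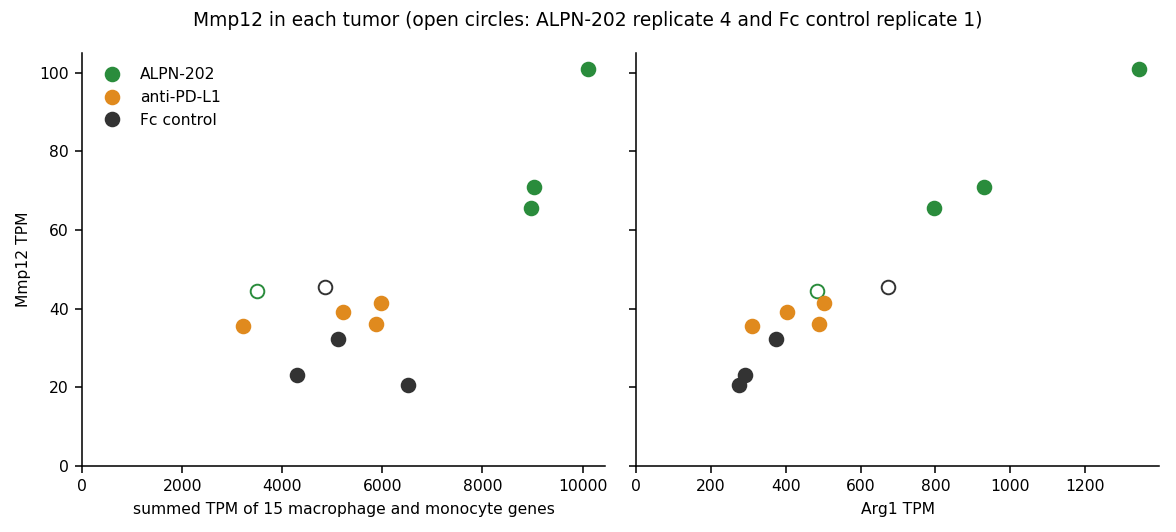
Mmp12 TPM in each tumor against the summed TPM of 15 macrophage and monocyte genes (left) and against Arg1 TPM (right), colored by treatment, with ALPN-202 replicate 4 and Fc control replicate 1 as open circles. The 3 filled ALPN-202 points, at 65.6 to 101 TPM of Mmp12, are above every other tumor on all 3 measures, and ALPN-202 replicate 4, at 44.4 TPM, had one of the lowest macrophage sums (3487 TPM).

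Mmp3 and Mmp10 encode the stromelysins, which cut a wide range of matrix proteins and activate other proMMPs. Mmp3 was at 93.3, 54.4, 79.5 and 79.96 TPM in ALPN-202 tumors, against 41.3, 35.4, 69.97 and 61.1 TPM in Fc control tumors. In 3 of 4 ALPN-202 tumors it was above every Fc control tumor, and the groups overlapped through ALPN-202 replicate 2. The log2 fold change was 0.82 (SE 0.35, unadjusted p = 0.0357, adjusted p = 0.487 from edgeR), and 0.52 (SE 0.33, unadjusted p = 0.147, adjusted p = 0.360 from edgeR) without the 2 libraries, so the call at the unadjusted threshold depended on them. Against anti-PD-L1, where Mmp3 was at 40.2, 72.4, 47.4 and 33.6 TPM, the log2 fold change was 1.05 (SE 0.35, unadjusted p = 0.0107, adjusted p = 0.343 from edgeR), and 0.68 without the 2 libraries (unadjusted p = 0.0491, adjusted p = 0.237 from edgeR). Over the 12 tumors Mmp3 was most like Dok2 (r = 0.90), the collagen-degrading cathepsin Ctsk (r = 0.89, and 0.68 without the 2 farthest tumors) and the chemokine Ccl6 (r = 0.87).

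Mmp10 went the other way from its paralog at a level close to the detection limit. It had 13, 12, 12 and 3 reads in ALPN-202 tumors, against 16, 23, 24 and 22 reads in Fc control tumors, and 17, 20, 29 and 26 reads in anti-PD-L1 tumors. In TPM these were 2.24, 1.51, 1.55 and 0.633 in ALPN-202 tumors, against 2.32, 3.27, 3.11 and 2.90 in Fc control tumors, and 2.42, 2.57, 3.77 and 3.40 in anti-PD-L1 tumors. All 4 ALPN-202 tumors were below the lowest tumor of each other group, with the narrowest gap between ALPN-202 replicate 1 and Fc control replicate 1 (p = 0.0286 in both comparisons by the exact two-sided permutation test, the lowest it allows). Among all genes, ALPN-202 tumors were below every Fc control tumor for 3.38% and below every anti-PD-L1 tumor for 6.12%, and Mmp10 was the 1 member in each count. Summed over the group, Mmp10 had 40 reads in ALPN-202 tumors (95% exact Poisson interval 28.6 to 54.5), 92 in anti-PD-L1 tumors (74.2 to 113) and 85 in Fc control tumors (67.9 to 105), intervals that cover counting error only. These sums are not corrected for depth, and total counts were 31488091 in ALPN-202, 39150270 in anti-PD-L1 and 35418381 in Fc control tumors. In log2 fold change Mmp10 was at -0.88 against Fc control (SE 0.27, unadjusted p = 0.00661, adjusted p = 0.338 from edgeR) and -0.77 against anti-PD-L1 (SE 0.27, unadjusted p = 0.0133, adjusted p = 0.353 from edgeR). Without the 2 libraries these were -0.77 and -0.74. Mmp10 was most like Pyroxd1 (r = 0.91), Lta4h (r = 0.88) and Anp32-ps (r = 0.81).

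Along the chromosome 9 cluster, neighbours therefore differed in sign. In genomic order Mmp13, Mmp12 and Mmp3 had positive log2 fold changes in ALPN-202 against Fc control, Mmp10 a negative one, and Mmp8, the collagenase stored in neutrophil granules, a positive one again (2.26, SE 0.36, adjusted p = 0.283 from edgeR) from no more than 54 reads in any tumor. Mmp8 passed the threshold by DESeq2 (adjusted p = 6.0e-05) and, without the 2 libraries, in edgeR (2.43, adjusted p = 0.0139). Mmp1b, Mmp1a, Mmp27, Mmp20 and Mmp7 did not pass the filter, with at most 12 reads in any tumor. The AP-1 letters shown above were present in windows of Mmp13, Mmp12, Mmp3 and Mmp10, and any link between these letters and the fold changes was not tested.

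**Figure D3:**
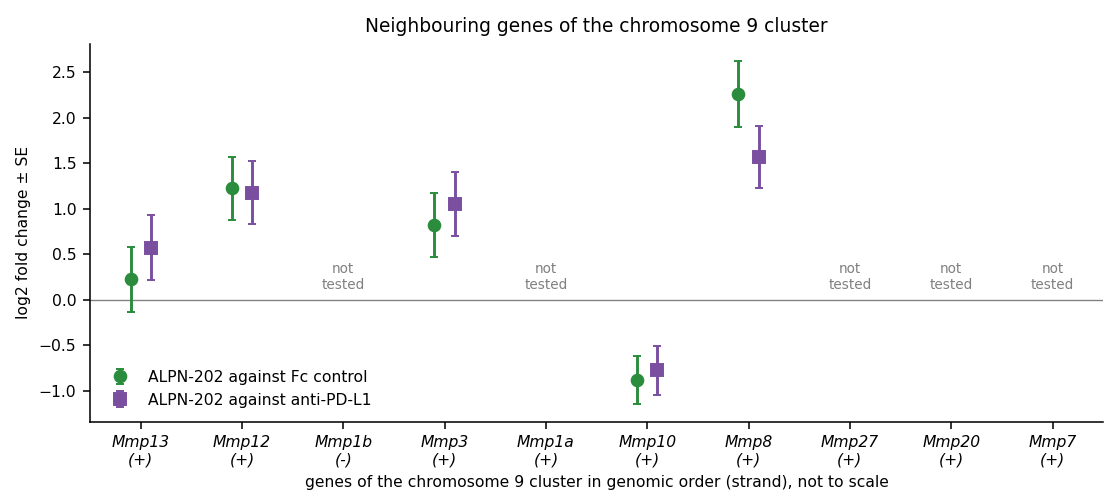
Log2 fold change ± SE (edgeR) of the 10 MMP genes of the chromosome 9 cluster, from left to right in genomic order with their strand, for ALPN-202 against Fc control (circles) and against anti-PD-L1 (squares). Of the 5 genes tested, Mmp10 alone lies below 0 (-0.88 and -0.77), between Mmp3 and Mmp8.

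Mmp13, the interstitial collagenase of rodents, was at 182, 83.6, 81.6 and 73.7 TPM in ALPN-202 tumors, against 117, 86.7, 96.4 and 80.2 TPM in Fc control tumors. The groups overlapped, and in TPM ALPN-202 replicate 1 was high alone. In CPM ALPN-202 tumors were at 226, 98.3, 98.0 and 177, against 209, 110, 99.4 and 95.3 in Fc control tumors. On that scale ALPN-202 replicate 4 and Fc control replicate 1 were high too. Its log2 fold change was 0.22 (SE 0.36, unadjusted p = 0.540 from edgeR), and it was -0.05 without ALPN-202 replicate 1. Anti-PD-L1 tumors had 74.7, 94.6, 122 and 58.1 TPM of Mmp13. Mmp13 was most like Ppap2a (r = 0.92), the myeloid receptor Clec5a (r = 0.86) and Dazap2 (r = 0.86).

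Mmp19, a secreted MMP known from vascular and myeloid cells, was at 41.4, 26.0, 26.6 and 7.45 TPM in ALPN-202 tumors, against 4.98, 11.2, 16.5 and 16.8 TPM in Fc control tumors. In 3 of 4 ALPN-202 tumors it was above every Fc control tumor, while ALPN-202 replicate 4 and Fc control replicate 1 were the lowest of their groups. In edgeR, ALPN-202 against Fc control was at a log2 fold change of 1.14 (SE 0.37, unadjusted p = 0.0101, adjusted p = 0.369 from edgeR), and 1.13 (SE 0.33, adjusted p = 0.0643 from edgeR) without the 2 libraries. Without the 4 tumors with high adipocyte genes it was 1.48 (adjusted p = 0.0464 from edgeR), in a fit that called 380 of 14321 genes. Without all 5 tumors of either set it was 1.250 (adjusted p = 0.0122 from edgeR). That fit was added after seeing the data and called 1387 of 14354 genes. It kept ALPN-202 replicates 1 to 3, Fc control replicates 2 and 3, and anti-PD-L1 replicates 1 and 3. Anti-PD-L1 tumors were at 16.9, 31.0, 14.2 and 15.1 TPM and overlapped both other groups, with the high value in replicate 2, the tumor with the largest adipocyte sum (14287 TPM). The log2 fold change of anti-PD-L1 against Fc control was 0.57, and 0.20 without that tumor. The part of adipose tissue in that value was not tested. As a share of the summed TPM of the 8 MMPs, Mmp19 took 3.44%, 2.78%, 2.30% and 1.87% in ALPN-202 tumors, against 1.05%, 1.35%, 1.58% and 1.56% in Fc control tumors, with no overlap. Anti-PD-L1 tumors, at 1.66%, 3.36%, 1.56% and 1.43%, overlapped both groups. How often such shares separate groups for other genes was not computed. In ALPN-202 replicate 4 the summed TPM of the 8 MMPs was 398, against 933 to 1205 TPM in the other ALPN-202 tumors. Its share was thus above Fc control although its Mmp19 level, 7.45 TPM, was below 3 of 4 Fc control tumors. In CPM its Mmp19 level was 22.9, against 11.4, 18.0, 21.7 and 25.4 in Fc control tumors, and so below Fc control replicate 4 only. The genes most like Mmp19 were Adamts15, a secreted protease that cuts proteoglycans (r = 0.96), Rgs3 (r = 0.96) and Mocs1 (r = 0.95).

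The gelatinases Mmp2 and Mmp9 cut denatured collagen and basement membrane collagen. Mmp9, a product of neutrophils and macrophages, was at 34.9, 41.4, 78.3 and 34.8 TPM in ALPN-202 tumors, against 43.8, 74.3, 74.8 and 83.0 TPM in Fc control tumors. In TPM it was below every Fc control tumor in 3 of 4 ALPN-202 tumors, and ALPN-202 replicate 3 was high alone. In CPM ALPN-202 tumors were at 51.4, 57.7, 112 and 99.3, against 93.1, 111, 91.4 and 117 in Fc control tumors. On that scale ALPN-202 replicate 4 lay within the Fc control range. The log2 fold change was -0.37 (SE 0.30, unadjusted p = 0.245, adjusted p = 0.902 from edgeR) against Fc control and -0.46 (SE 0.30, unadjusted p = 0.153, adjusted p = 0.624 from edgeR) against anti-PD-L1, where Mmp9 was at 105, 54.9, 53.4 and 113 TPM. Mmp9 and Mmp12, 2 MMPs of macrophages, thus had estimates of opposite sign, though the one for Mmp9 was close to its error. Of the 10 neutrophil markers 4 passed the filter, all 4 with a positive estimate in ALPN-202 against Fc control. Of these, 1 (Csf3r, 1.59) had an unadjusted p under 0.05, against 7.2% of all genes higher. The 10 markers summed to 42.6 to 117 TPM in ALPN-202 tumors, against 14.5 to 32.5 TPM in Fc control tumors. Anti-PD-L1 tumors, at 14.0 to 72.0 TPM, overlapped both groups. Mmp9 was most like Btbd2 (r = 0.91), Atg16l2 (r = 0.89) and Kirrel3 (r = 0.84).

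Mmp2 and Mmp14 followed each other closely. Mmp2 was at 200.04, 150.2, 231 and 37.6 TPM in ALPN-202 tumors, against 49.7, 137, 184 and 217 TPM in Fc control tumors, and at 199, 179, 162 and 222 TPM in anti-PD-L1 tumors. Mmp14 was at 550.3, 511, 587 and 119 TPM in ALPN-202 tumors, against 172, 461, 576 and 580.1 TPM in Fc control tumors, and at 539, 452, 467 and 575 TPM in anti-PD-L1 tumors. Both were lowest in ALPN-202 replicate 4 and Fc control replicate 1, and apart from these 2 libraries every tumor had 137 to 231 TPM of Mmp2 and 452 to 587 TPM of Mmp14. Pearson's r of their log2 CPM was 0.96 over 12 tumors and 0.79 without the 2 libraries. The log2 fold changes in ALPN-202 against Fc control were 0.16 (SE 0.35) for Mmp2 and 0.07 (SE 0.29) for Mmp14, and without the 2 libraries 0.16 (SE 0.19) and 0.08 (SE 0.11). Fibroblast genes summed to 1082 to 5915 TPM in ALPN-202 tumors, 3857 to 4683 TPM in anti-PD-L1 tumors and 1451 to 4199 TPM in Fc control tumors, with the lowest sum of each of the ALPN-202 and Fc control groups in the same 2 libraries. The genes most like Mmp2 were Mxra8, Zcchc24 and the matrix glycoprotein gene Emilin1 (r = 0.98, 0.97 and 0.97), and those most like Mmp14 were Heatr7a, Clip2 and Fbrs (r = 0.99 for each).

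The inhibitors were among the abundant members. Timp1, a secreted inhibitor that cytokines induce, was at 206, 184, 227 and 232 TPM in ALPN-202 tumors, against 223, 226, 259 and 323 TPM in Fc control tumors, and at 234, 277, 235 and 199 TPM in anti-PD-L1 tumors. Timp2, which inhibits MMPs and also takes part in the activation of proMMP2 by Mmp14, was at 379, 345, 377 and 192 TPM in ALPN-202 tumors, against 265, 389, 489 and 408 TPM in Fc control tumors, and at 415, 354, 412 and 513 TPM in anti-PD-L1 tumors. Both sets of groups overlapped. The log2 fold change in ALPN-202 against Fc control was -0.04 (SE 0.29, unadjusted p = 0.897 from edgeR) for Timp1 and -0.13 (SE 0.12, unadjusted p = 0.336 from edgeR) for Timp2. On the TPM scale the sum of both was 425 to 605 in ALPN-202 tumors, 630.2 to 712 in anti-PD-L1 tumors and 487 to 748 in Fc control tumors. The summed TPM of the 8 MMPs divided by that of the 2 inhibitors was 2.06, 1.77, 1.91 and 0.937 in ALPN-202 tumors, against 0.976, 1.35, 1.395 and 1.47 in Fc control tumors and 1.57, 1.46, 1.41 and 1.48 in anti-PD-L1 tumors. ALPN-202 replicates 1 to 3 had the 3 highest ratios and replicate 4 the lowest (exact two-sided permutation test p = 0.257 against Fc control). The genes most like Timp1 were Ndufa6, Fkbp2 and Commd9 (r = 0.99, 0.97 and 0.95), and those most like Timp2 were Ero1l, Appl2 and Emx2 (r = 0.93, 0.93 and 0.90).

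Between anti-PD-L1 and Fc control, no member had an unadjusted p under 0.05, and log2 fold changes ranged from -0.35 for Mmp13 (SE 0.36) to 0.57 for Mmp19 (SE 0.37). Without the 2 libraries Mmp13 was at 0.00256. Over all genes, 0% passed the adjusted threshold, and at an unadjusted p under 0.05 there were 1.44% with a higher and 0.629% with a lower level. The TPM groups of no member were apart, against 0.852% of genes higher and 0.994% lower. Mmp12 was at 0.05 (SE 0.34) with all tumors and at 0.59 (SE 0.20, unadjusted p = 0.0143, adjusted p = 0.878 from edgeR) without the 2 libraries. Between ALPN-202 and anti-PD-L1, 2 members were higher at an unadjusted p under 0.05 (Mmp12 and Mmp3, against 6.82% of genes) and 1 was lower (Mmp10, against 2.47%). None passed the adjusted threshold in edgeR (0% of genes) or DESeq2 (202 genes, 1.43%). The remaining members in that comparison had log2 fold changes of -0.46 to 0.57. The 3 comparisons share their groups and are not independent of each other.

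**Figure D4:**
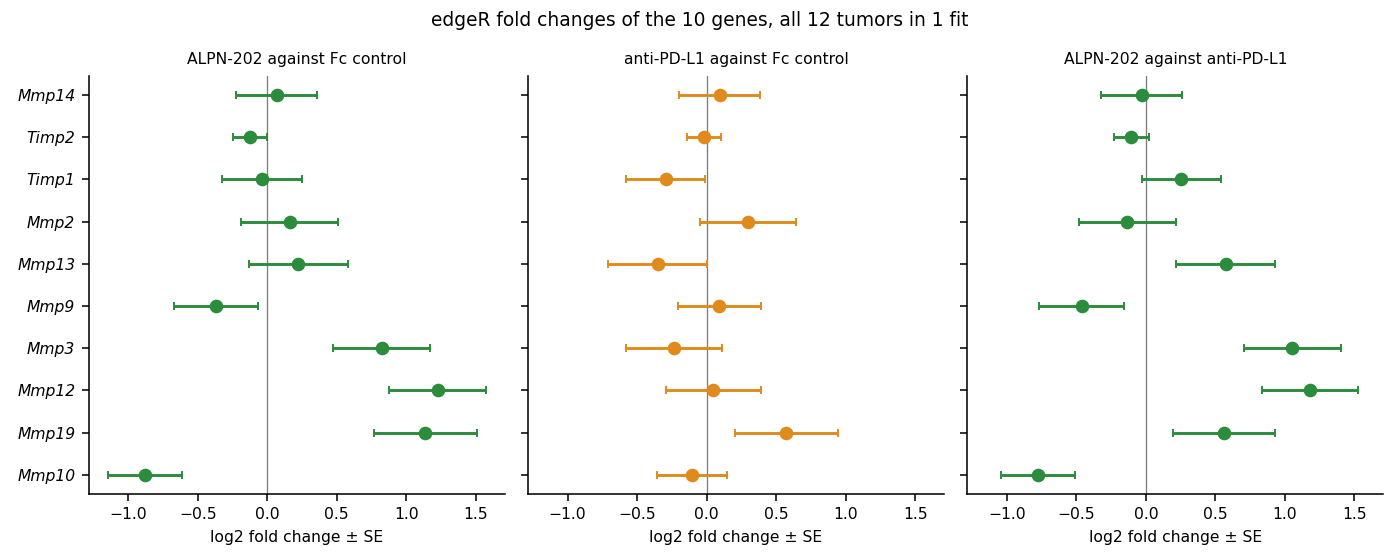
Log2 fold change ± SE (edgeR, 12 tumors in 1 fit) of the 10 genes in the 3 comparisons, genes from top to bottom in order of their median TPM. Mmp12 and Mmp3 are above 0 and Mmp10 below 0 in both comparisons of ALPN-202, while the estimates of anti-PD-L1 against Fc control lie between -0.35 and 0.57.

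The 10 genes shifted unequally in the 2 libraries that stood apart, and their transcripts differ in G+C content, a property looked at after the values were seen. Mmp12 (40.1% G+C) and Mmp13 (41.6%) were above the median of the other 10 tumors in log2 CPM in both libraries, by 1.29 and 0.84 in ALPN-202 replicate 4 and by 0.896 and 1.076 in Fc control replicate 1. Mmp2 (55.2%) and Mmp14 (55.4%) were below it, by log2 differences of -1.32 and -1.07 in ALPN-202 replicate 4 and -1.34 and -0.97 in Fc control replicate 1. Mmp9, at 55.2% G+C, shifted little (-0.02 and -0.12), and Timp1, the shortest transcript at 883 bases and 52.8% G+C, was above the median (1.05 and 0.56). The stromelysins are alike in G+C (45.9% for Mmp3, 46.0% for Mmp10), but in ALPN-202 replicate 4 Mmp3 was above the median by 1.498 and Mmp10 below it (-0.91), against 0.12 and 0.36 in Fc control replicate 1. Mmp19 (49.0%) was at -0.16 and -1.16, and Timp2 (53.7%) at -0.0460 and -0.0128. Over 12777 genes with a coding transcript (90.3% of those tested), genes of at most 42.1% G+C were above the other 10 tumors by a median log2 difference of 0.46 in ALPN-202 replicate 4 and 0.54 in Fc control replicate 1, and genes of at least 58.3% were below (-0.39 and -0.44). In the other 10 tumors these medians lay between -0.15 and 0.20. The part of G+C content or length in any fold change above was not tested.

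**Figure D5:**
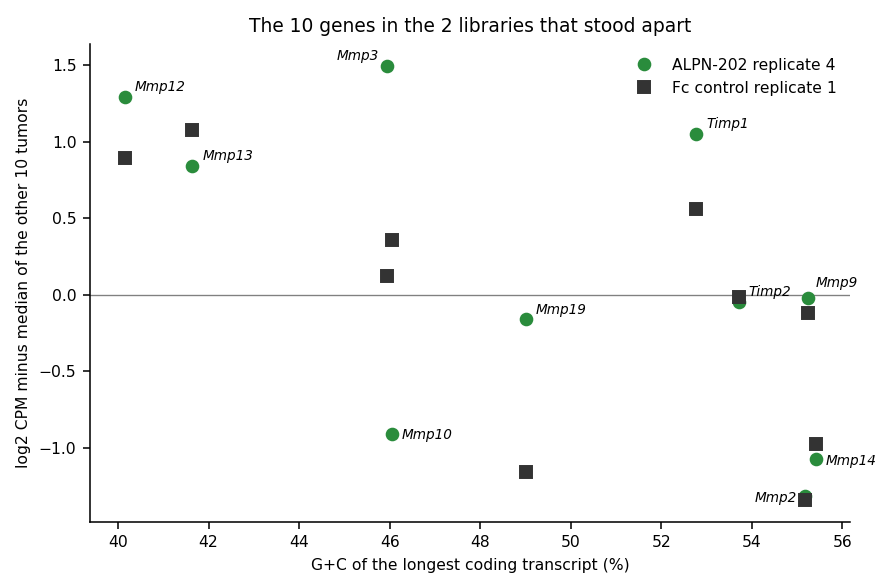
Log2 CPM in ALPN-202 replicate 4 (circles) and Fc control replicate 1 (squares) minus the median of the other 10 tumors, for each of the 10 genes against the G+C content (%) of its longest coding transcript. The 2 genes lowest in G+C, Mmp12 and Mmp13, lie 0.84 to 1.29 above 0 in both libraries, and Mmp2 and Mmp14 lie 0.97 to 1.34 below.

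Of the 15 other MMP genes, 8 passed the filter. In ALPN-202 against Fc control, 3 of these were higher and 2 were lower, each by an unadjusted p under 0.05, against 7.2% and 1.98% of all genes. The 15 genes summed to 30.6 to 79.0 TPM in ALPN-202 tumors, against 37.4 to 83.6 TPM in Fc control tumors. Besides Mmp8, the membrane-anchored leukocyte MMP gene Mmp25 was higher (14.8, 11.8, 9.35 and 1.08 TPM in ALPN-202 tumors, against 1.18, 2.75, 4.03 and 3.70 TPM in Fc control tumors, log2 fold change 1.71, SE 0.49, adjusted p = 0.312 from edgeR). Mmp25 passed the threshold by DESeq2 (adjusted p = 0.0391) and, without the 2 libraries, in edgeR (1.83, adjusted p = 0.0152). Mmp11, the stromelysin 3 of stromal cells, was lower (log2 fold change -0.55, SE 0.20, adjusted p = 0.408 from edgeR). Mmp23 was higher (1.02, SE 0.38, unadjusted p = 0.0201, adjusted p = 0.413 from edgeR) and Mmp16 lower (-0.75, SE 0.31, unadjusted p = 0.0317, adjusted p = 0.472 from edgeR). Mmp15, Mmp17 and Mmp28 were at 0.39 (SE 0.77), 1.08 (SE 0.58) and -0.53 (SE 0.59). Mmp21 and Mmp24 did not pass the filter, with at most 2 reads in any tumor. Mmp1a and Mmp20 had 0 reads in all tumors. Of the other inhibitors, the matrix-bound Timp3 was at 55.5, 41.3, 51.6 and 12.8 TPM in ALPN-202 tumors, against 10.9, 26.6, 28.4 and 33.0 TPM in Fc control tumors (log2 fold change 0.79, SE 0.31, adjusted p = 0.445 from edgeR), and Reck, a membrane-anchored inhibitor, was at -0.21 (SE 0.27). Timp4 did not pass the filter, and 63 of its reads were in anti-PD-L1 replicate 2, against at most 4 in any other tumor.

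Other matrix proteases were counted in lists set with earlier results of these data known. The shares of all genes to set beside these counts, at an unadjusted p under 0.05 in ALPN-202 against Fc control, were 7.2% higher and 1.98% lower. Of 10 cathepsins, lysosomal proteases that macrophages also secrete, 5 were higher and 0 were lower in ALPN-202 against Fc control (unadjusted p under 0.05, median log2 fold change 0.72), led by Ctsc (0.93), Ctsk (1.33) and Ctss (0.83). Of 15 ADAM and ADAMTS genes tested, 3 were higher and 0 lower with a median of 0.24, led by the myeloid sheddase Adam8 (0.84), Adamts15 (1.86) and Adam12 (1.18). Of 15 inducers of MMP genes tested, 4 were higher and 0 lower with a median of 0.27, led by the cytokine Il1a (1.46) and the AP-1 subunits Fosb (0.83) and Fos (1.07). Of 16 genes of matrix substrates, 0 were higher and 0 lower, with a median of 0.05, and Col1a2, Col6a1 and Col1a1 were at 1.13 (SE 0.55), -0.59 (SE 0.31) and 1.01 (SE 0.62). In anti-PD-L1 against Fc control the medians were -0.08 for cathepsins, 0.31 for ADAM and ADAMTS genes, -0.05 for inducers and 0.42 for matrix substrates. There 0 genes of these 4 lists had an unadjusted p under 0.05. No gene of these lists passed the adjusted threshold in edgeR, nor did any other gene tested (0%).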

How the data were processed

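RNA from 12 MC38/hPD-L1 tumors, 4 per treatment as the labels give it, was sequenced as full-length cDNA with single 58-base reads. The authors deposited raw counts per gene, from htseq-count after trimming and alignment to build NCBIM37. The aligner is STAR in the Methods, but TopHat 1.4.1 in the submitters' processing notes, which give HTSeq as version 0.4.1. The authors also deposited TPM, computed from the counts with gene lengths of NCBIM37. No per-sample column was left out.

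Each line of the count table was 1 feature (219 names stood on more than 1 line). Counts were normalized by TMM, filtered with filterByExpr (minimum count 10, minimum total 15) and fitted in 1 quasi-likelihood model of the 12 tumors with 9 residual degrees of freedom (R 4.3.3 with edgeR 4.0.16), with Benjamini-Hochberg adjustment over all 14142 genes and a threshold of 0.05. TPM were compared by exact two-sided permutation tests (Python 3.11.15, SciPy 1.17.1). Alternatives were RLE size factors, no filter, DESeq2 1.42.0, the replicate number as a block, limma 3.58.1 on log2 TPM (pseudocount 1 or 0.1), TMM-normalized CPM for the exact tests, and leaving out each tumor, 2 libraries with a length trend or 4 tumors with high adipocyte genes. Leaving out all 5 of these tumors was added after seeing the data. The scripts were tested on simulated data. Figures were drawn with Matplotlib 3.10.9.

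The members, gene lists and tests were chosen with earlier results of these data known. Named were the 10 members, the other MMP and TIMP genes and Reck by value or range, the 3 genes of each other list with the smallest edgeR p in ALPN-202 against Fc control (for cell types, the macrophage list only), and the 3 genes with the highest Pearson's r to each member over 12 tumors (mean log2 CPM of at least 3, no clones or predicted genes). Arg1 levels and G+C content were chosen after their values were seen. A further gene list is not reported here. Protein sequences were not analysed here. The labels do not say more of the replicates than that they are separate tumors.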

Additional observations from a re-analysis of the deposited data

Results flagged for a closer look

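In 30 groups of 4 tumors (10 genes in 3 treatments), 4 values lay far from the other 3 of their group by Dixon's ratio (above 0.829), a rule that chance meets in about 1 of 20 groups. Mmp9 was at 78.3 TPM in ALPN-202 replicate 3, and at 34.8 to 41.4 TPM in the other ALPN-202 tumors. Mmp13 was at 182 TPM in ALPN-202 replicate 1, the tumor that was also highest in Mmp12, Mmp3 and Mmp19. Mmp14 was at 119 TPM in ALPN-202 replicate 4, the library of lowest depth. Mmp19 was at 31.0 TPM in anti-PD-L1 replicate 2, the tumor with the highest adipocyte sum. The causes were not tested.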

How the results depend on the processing

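In all 3 comparisons edgeR called 0 genes, also with RLE size factors, without the filter, with limma on log2(TPM + 1) or log2(TPM + 0.1), and with the replicate block (0 called). In ALPN-202 against Fc control, DESeq2 called 232 genes (189 higher, 43 lower), and edgeR called 1074 without the 2 libraries with a length trend, 380 without the 4 tumors with high adipocyte genes, 1387 without all 5, and 0 to 428 with 1 tumor left out (428 without ALPN-202 replicate 4). In ALPN-202 against anti-PD-L1 these were 202 by DESeq2, 748 without the 2 libraries and 850 without all 5, but 0 without the 4 tumors and 0 with any 1 tumor left out. The replicate numbers were not treated as a pairing, as 1 of 12 libraries was most like a library with its number. limma on log2(TPM + 1) turned the split of ALPN-202 against Fc control at an unadjusted p under 0.05 to 387 higher and 521 lower (1018 and 280 in edgeR), with medians of all genes of -0.12 there, 0.13 in anti-PD-L1 against Fc control and -0.24 in ALPN-202 against anti-PD-L1.

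Mmp12, Mmp3, Mmp19 and Mmp10 kept their sign under all 21 alternatives in both comparisons of ALPN-202. So did Mmp9 and Timp2, at -0.37 and -0.13 against Fc control (unadjusted p = 0.245 and 0.336 from edgeR), so a stable sign was not particular to members with a small p. Mmp12 ranged from 1.02 to 1.93 (edgeR, limma or DESeq2 adjusted p = 0.00356 to 0.915) against Fc control and from 0.82 to 1.28 against anti-PD-L1. Mmp19 against anti-PD-L1 was at 0.56 with all tumors (SE 0.37, unadjusted p = 0.151, adjusted p = 0.624 from edgeR). Without the 2 libraries it was at 0.73 (SE 0.31, adjusted p = 0.203 from edgeR). Without all 5 tumors Mmp12 was at 1.93 and 1.01 and Mmp19 at 1.250 and 1.04, all past the threshold. This setting was added after seeing the data, and called 1387 and 850 of 14354 genes in these comparisons. It kept only replicates 2 and 3 of Fc control and replicates 1 and 3 of anti-PD-L1. Other estimates changed sign, among them Mmp13 in anti-PD-L1 against Fc control (-0.35 with all tumors) and Timp1 in ALPN-202 against anti-PD-L1 (0.26 with all tumors), with causes not tested. Under limma with pseudocounts of 1 and 0.1, these were, against Fc control, Mmp10 (0.0419 and 0.0518) and Timp2 (0.15 and 0.15) for anti-PD-L1 and Mmp2 (-0.0110 and -0.0126) and Mmp14 (-0.11 and -0.11) for ALPN-202, and Timp1 (-0.15 and -0.15) in ALPN-202 against anti-PD-L1. Timp2 in anti-PD-L1 against Fc control was at 0.0116 by DESeq2, 0.0118 with RLE and 0.00395 with no filter. Without the 2 libraries, without the 4 tumors and without all 5, ALPN-202 against anti-PD-L1 gave Mmp14 at 0.16, 0.18 and 0.16, Mmp2 at 0.0737, 0.15 and 0.13, and Timp1 at -0.16, -0.14 and -0.16. Without the 2 libraries and without all 5, anti-PD-L1 against Fc control gave Mmp13 at 0.00256 and 0.13 and Mmp14 at -0.0844 and -0.00784. CPM in place of TPM reversed the log2 ratio of means to -0.11 for Mmp10 and -0.0195 for Timp2 (anti-PD-L1 against Fc control), 0.0671 for Mmp14 (ALPN-202 against Fc control) and 0.26 for Timp1 (ALPN-202 against anti-PD-L1), and gave Timp2 an exact permutation p of 0.0286 in ALPN-202 against Fc control (n = 4 each). With 1 tumor left out, ALPN-202 against Fc control ranged from -0.0500 to 0.55 for Mmp13, -0.15 to 0.28 for Mmp14, -0.0774 to 0.40 for Mmp2 and -0.43 to 0.11 for Timp1. ALPN-202 against anti-PD-L1 ranged from -0.15 to 0.18 for Mmp14, -0.34 to 0.0919 for Mmp2 and -0.14 to 0.41 for Timp1. Anti-PD-L1 against Fc control ranged from -0.15 to 0.57 for Mmp12, -0.10 to 0.23 for Mmp14, -0.0875 to 0.25 for Mmp9 and -0.0820 to 0.0330 for Timp2. Depth limits Mmp10 most, at 3 to 29 reads per tumor.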
